A study of Mus musculus with 11 samples.

Results

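The Mediator complex genes were followed in single 8-cell mouse embryos that lacked or carried the transcription factor PRDM10. Members were the protein-coding genes whose symbol begins with Med and a number, together with *Cdk8*, *Cdk19* and *Ccnc*. This rule found 33 of the 54146 genes in the tables. It set aside 1 further match, *Med9os*, which is not protein-coding. By the module placement used here, 9 genes belong to the head, 9 to the middle, 1 (*Med14*) to the scaffold, 7 to the tail and 7 to the kinase module. Schemes differ in the module they give to *Med1*, *Med26*, *Med27*, *Med28*, *Med29* and *Med30*. The module levels, sums and medians below depend on this placement.

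Mediator is a large protein assembly that carries signals from transcription factors bound to enhancers and promoters to RNA polymerase II. The head and middle contact the polymerase, *Med14* holds the modules together as a backbone, and the tail is the main landing surface for activators. The kinase module, built from a cyclin-dependent kinase, its cyclin and 2 large subunits, binds reversibly and blocks the contact with polymerase while it is attached. In vertebrates *Cdk8*, *Med12* and *Med13* each have a paralog (*Cdk19*, *Med12l* and *Med13l*) that can take the same place.

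The 11 embryos came from natural matings between heterozygous carriers of the deleted allele (*Prdm10Δ/+*) on a C57BL/6 background and were collected at embryonic day 2.5. The 5 mutants were *Prdm10Δ/Δ*, with exon 5 deleted on both alleles, and the 6 controls were *Prdm10+/+* or *Prdm10Δ/+*, which the labels do not separate. The deletion was made in the germ line with an ACTB-Cre line, so it is present in every cell, and embryos were typed by detection of exon 5 in their own cDNA. Whether embryos shared a litter is not given in the sources used here. Each embryo gave 1 Smart-seq2 library, primed on poly(A) tails and without strand. Batch 1, with 16 cycles of PCR pre-amplification, held 3 controls and 2 mutants, and batch 2, with 13 cycles, held 3 controls and 3 mutants.

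Summed expected counts per embryo ranged from 3534735 to 8265840. *Prdm10* itself was checked first, which is not independent of the labels, since embryos were typed by its exon 5 in the same cDNA. Its normalised counts overlapped between controls (124 to 381) and mutants (104 to 202), with a log2 fold change of -0.66 (DESeq2 adjusted p = 0.215). Its effective length, the stretch of transcript over which reads could fall, separated the groups, at 2565 to 3357 bases in controls and 4348 to 5051 bases in mutants, and its TPM was 11.1 to 24.8 against 4.88 to 8.16. Of 7 genes listed as markers of the 8-cell embryo, *Pou5f1*, *Nanog*, *Tfap2c*, *Gata6* and *Klf17* were expressed, while *Sox2* and *Cdx2* had mean TPM below 1 in both groups. Of these 5, DESeq2 called *Klf17*, which was lower in mutants (log2 fold change -1.10, DESeq2 adjusted p = 0.0210, edgeR adjusted p = 0.188). The other 4 were not called, with log2 fold changes of -1.05 for *Nanog*, 0.90 for *Pou5f1*, 0.52 for *Gata6* and 0.38 for *Tfap2c*, and the median of the 5 was 0.38. The 1 of 5 called was 20.0%, against 1.45% of all tested genes. At an unadjusted p under 0.05 DESeq2 gave 4 of these 5 markers (80.0%, against 11.9% of all tested genes), all but *Gata6*. The normalised counts of *Tfap2c* were apart and higher in mutants in both batches. Summed TPM of 4 oocyte markers was 30.7 to 103 in controls and 39.8 to 72.8 in mutants. Among other cells, 5 cumulus cell genes summed to 0 to 0.240 TPM in controls and 0 to 3.08 TPM in mutants, 4 oviduct genes to 0.290 to 25.1 and 0.330 to 32.4 TPM, and 4 blood genes to 0 to 10.9 and 0 to 1.95 TPM, with *Has2*, *Ptx3* and *Hbb-bt* listed at 0 throughout. Their part in the results was not tested. In whole embryos, fewer cells and less RNA per cell cannot be told apart.

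Mediator transcripts were well represented at the 8-cell stage. All 33 genes passed the minimum used for testing, a mean normalised count above 10. TPM, an abundance scaled for transcript length and library size that allows genes to be compared, had a median of 39.0 over the 33 members and of 12.1 over all tested genes. The levels spanned from 459 ± 61.3 TPM for *Med28* to 3.59 ± 1.21 TPM for *Med13l* (mean ± SD over 11 embryos). The lowest member differed by batch, being *Med13l* in batch 1 (2.79 ± 0.801 TPM) and *Med16* in batch 2 (3.11 ± 1.57 TPM, with *Med13l* at 4.25 ± 1.12 TPM).

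The head held the most abundant transcripts. *Med28* was followed by *Med6*, a subunit at the joint of head and middle, at 281 ± 37.8 TPM. *Med8*, *Med17* (the central subunit of the head), *Med20*, *Med22* and *Med11* had means between 36.2 and 69.0 TPM. *Med18*, which pairs with *Med20*, had 11.5 ± 4.33 TPM, and *Med30* had 6.85 ± 2.90 TPM. The range of *Med28* over the embryos (371 to 550 TPM) lay far above that of *Med30* (3.89 to 12.4 TPM), although both were placed in the same module here.

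In the middle, 4 small subunits, *Med10*, *Med21*, *Med31* and *Med4*, had mean TPM of 198, 185, 176 and 113. *Med7* had 48.5 TPM, *Med19* had 35.1 TPM and *Med9* had 24.3 TPM. *Med1*, the subunit that nuclear receptors bind, had 34.2 ± 10.99 TPM. *Med26*, which helps hand the polymerase to elongation factors, was the least abundant of the module at 8.85 ± 3.84 TPM. The scaffold gene *Med14* had 39.0 ± 17.7 TPM.

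In the tail, *Med27* (224 ± 41.1 TPM) and *Med29* (131 ± 17.5 TPM) stood above the rest. *Med24* had 47.5 ± 22.7 TPM and *Med25*, a target of viral and cellular activators, had 24.1 ± 15.3 TPM. *Med23* and *Med15*, which also receive activators, had 11.5 and 7.86 TPM, and *Med16* had 7.58 TPM. The lowest member of the tail differed by batch, since *Med16* had 13.0 ± 5.90 TPM (SD, n = 5) in batch 1 and 3.11 ± 1.57 TPM (n = 6) in batch 2, where *Med15* had 8.41 ± 0.804 and 7.40 ± 2.38 TPM.

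The kinase module had the lowest levels, with a median over its members of 4.77 TPM against 57.5 for the head, 48.5 for the middle and 24.1 for the tail. Within it, cyclin C (*Ccnc*) at 57.7 ± 16.9 TPM and the kinase *Cdk8* at 39.3 ± 10.5 TPM stood far above the 5 large or paralogous members. *Med13*, *Med12*, *Cdk19*, *Med12l* and *Med13l* had mean TPM of 8.45, 4.77, 4.11, 4.05 and 3.59. No order is drawn among these 5, because the means pool batches that differed. *Med13* and *Med12* lay within 1 SD of each other in batch 1, at 4.91 ± 1.41 and 4.81 ± 1.17 TPM (SD, n = 5), and further from each other in batch 2, at 11.4 ± 6.47 and 4.74 ± 2.90 TPM (n = 6).

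**Figure D1:**
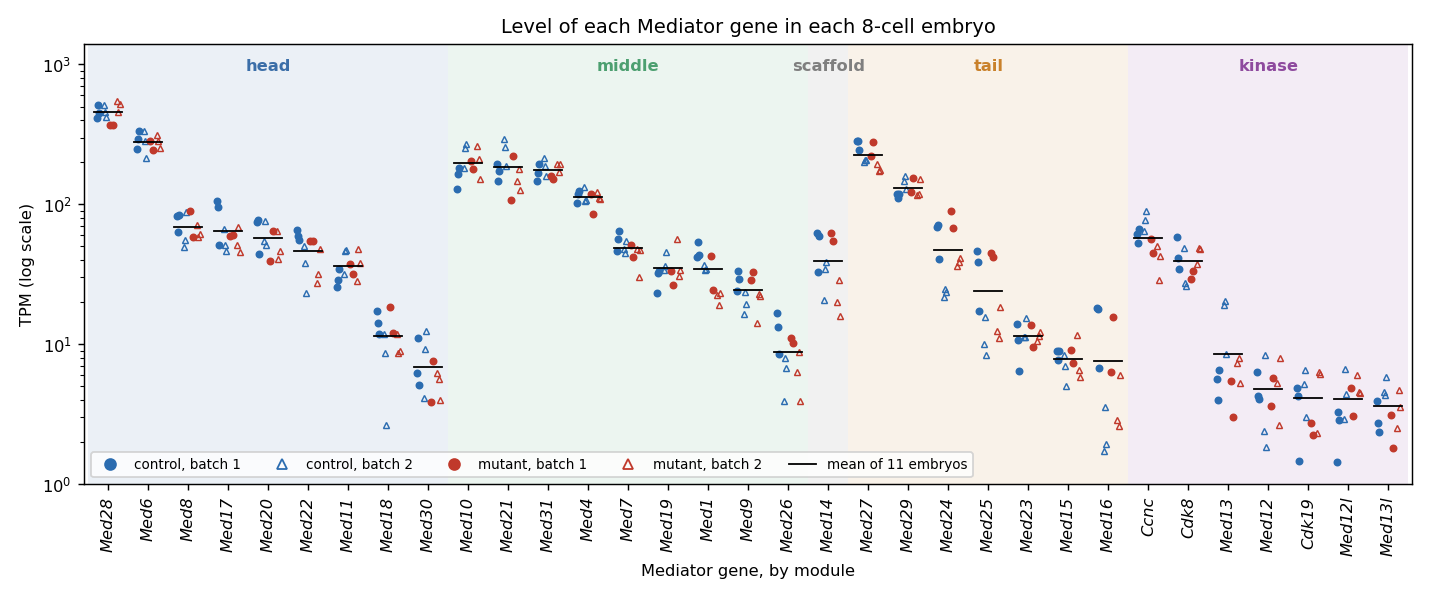
TPM on a log axis of each Mediator gene in each of the 11 embryos, with genes grouped by module and ordered by their mean (black bar) within it. *Med28* at 459 TPM and *Med13l* at 3.59 TPM have the highest and lowest mean over all 11 embryos (in batch 2 *Med16* was lowest), and 5 of the 7 kinase module genes have means below 10 TPM.

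The paralog pairs of the kinase module were shared unevenly. *Cdk8* made up 80.6% to 96.0% of the summed TPM of *Cdk8* and *Cdk19*, with a median over the 11 embryos of 90.6%. *Med13* made up 59.0% to 82.4% of the *Med13* and *Med13l* sum, with a median of 63.0%. *Med12l* and *Med12* had similar TPM, with *Med12l* at 18.3% to 70.4% of their sum and a median of 44.1%. These shares overlapped between controls and mutants in all 3 pairs. In controls the *Cdk8* share had a median of 90.4% and in mutants of 91.5%, the *Med13* share 66.5% and 63.0%, and the *Med12l* share 43.7% and 53.4%. The *Med12* value rested on few reads, from 9 to 55.6 expected counts per embryo. Mean normalised counts over all embryos were 152 for *Med12l* and 35.7 for *Med12*. The similar TPM therefore rested on the shorter effective lengths given to *Med12*. These averaged 1600 bases in controls and 1967 in mutants, against 7517 and 7965 for *Med12l*.

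Reads that fit more than 1 gene added little to the uncertainty of these levels. The posterior standard deviation that RSEM gives for dividing such reads had a median over embryos of at most 1.98% of the count, the highest values being those of *Med12l* and *Med12*. Overlapping genes are a separate limit, since the libraries did not keep strand. *Med10* shares 92.8% of its exon bases with *Gm26819* on the opposite strand, *Med31* shares 26.3% with *4930563E22Rik*, *Med20* shares 21.4% with *Kpna2-ps* and *Med7* shares 21.2% with *2310031A07Rik*. *Med12l* shares 15.3% with *Igsf10*, *Med26* 12.7% with *Gm17435*, *Med19* 11.9% with *Zdhhc5* and *Med21* 9.88% with *Gm6654*, all on the opposite strand. The counts of these 8 genes are therefore uncertain. Smaller shares lie opposite other members, among them 7.38% of *Med13* (*Brip1os*) and 5.40% of *Ccnc* (*Tstd3*). *Med12* shares 9.72% of its exon bases with *Gm21986* on the same strand.

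Members varied less between embryos than genes at large. Within batch and group, the SD of log2(TPM + 1) had a median of 0.323 over the members and of 0.457 over all tested genes, whose levels are lower. *Med27* had the smallest value, 0.121, and *Med12* the largest, 0.644.

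The comparison of mutant with control embryos asks whether loss of PRDM10 changed the expression of Mediator genes at the 8-cell stage. None of the 33 members was called changed by DESeq2 with batch as a term (adjusted p under 0.05), where 1.45% of all 10448 tested genes were called. The edgeR quasi-likelihood test called none either, against 0.334% of all tested genes, and limma on log2(TPM + 1) called none, against 0.210%. At an unadjusted p under 0.05, DESeq2 singled out 4 members (12.1%) and 11.9% of all tested genes, so that the share among Mediator genes was near the background. At that level edgeR gave 4 members (12.1%, against 9.49% of all tested genes) and limma 5 (15.2%, against 9.95%). The DESeq2 genes were *Ccnc*, *Med13* and *Med1*, with lower values in mutants, and *Med24*, with higher values.

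Of the 33 log2 fold changes, 20 were below 0 and 13 above, with a median of -0.06 against -0.0012 over all tested genes, and each was smaller than 2-fold. For 28 members the 95% interval lay within 2-fold in both directions. The other 5 intervals, those of *Med30*, *Med24*, *Med16*, *Med12* and *Med13*, reached beyond 2-fold on 1 side, so that they held changes of that size.

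**Figure D2:**
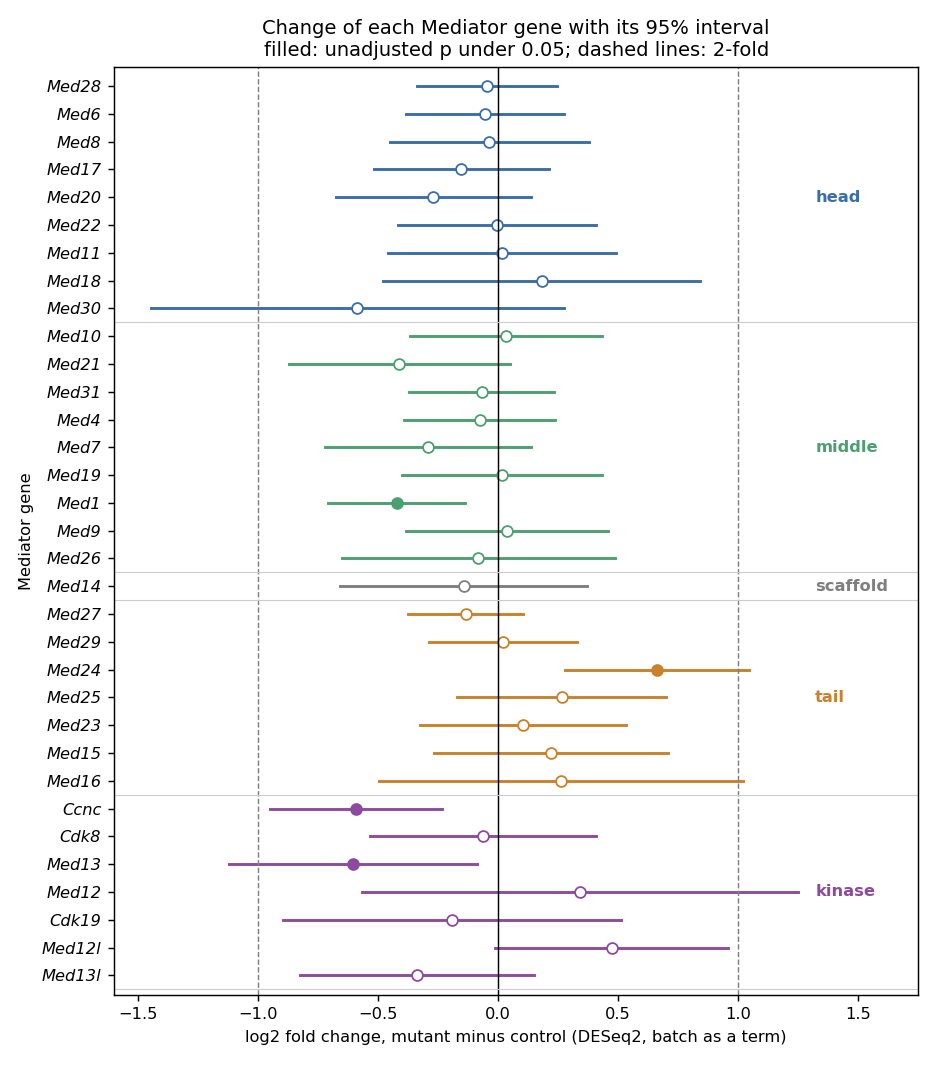
Log2 fold change (mutant minus control, DESeq2 with batch as a term) of each Mediator gene, with its 95% interval, grouped by module. Filled points mark the 4 genes with an unadjusted p under 0.05, and the dashed lines at -1 and 1 mark 2-fold. *Ccnc*, *Med13* and *Med1* lie to the left, *Med24* to the right, and no gene passed the adjusted threshold.

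*Ccnc* encodes cyclin C, the partner that activates *Cdk8* and *Cdk19*, and lies at chr4:21727701-21759922 (GRCm38, plus strand). Its normalised counts were 432, 403 and 519 in batch 1 controls and 487, 735 and 587 in batch 2 controls. Mutants had 378 and 326 in batch 1 and 371, 287 and 397 in batch 2, so that every mutant lay below every control. On the TPM scale the batch 1 groups overlapped, at 53.1 to 66.2 in controls and 44.7 and 56.6 in mutants. *Ccnc* had a log2 fold change of -0.59 ± 0.18 (SE), which missed the threshold in DESeq2 (adjusted p = 0.0672) and in edgeR (adjusted p = 0.244). Within batches the change was -0.36 in batch 1 and -0.78 in batch 2.

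*Med1* lies at chr11:98152154-98193293 (minus strand). Its normalised counts were 452, 444 and 452 in batch 1 controls and 544, 474 and 495 in batch 2 controls, and the mutants had 410 and 313 in batch 1 and 383, 323 and 360 in batch 2. Here too each mutant was below each control. The log2 fold change was -0.42 ± 0.15 (DESeq2 adjusted p = 0.129, edgeR adjusted p = 0.366), with -0.31 in batch 1 and -0.51 in batch 2. On the TPM scale the batch 1 groups overlapped, at 42.1 to 54.0 in controls and 24.6 and 42.8 in mutants.

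*Ccnc* and *Med1* were the only 2 members (6.06%) whose normalised counts did not overlap between the groups within both batches, where 2.74% of all tested genes were apart in this way in either direction. No member was apart in the direction of higher values in mutants. No member had effective lengths that were apart between the groups in the same direction within both batches (0 of 33, against 1.16% of all tested genes). Within single batches, 11 members (33.3%, against 15.05% of all tested genes) were apart in batch 1, which held only 2 mutants, and 2 members, *Med1* and *Cdk8*, in batch 2 (6.06%, against 10.6%).

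*Med24* encodes a tail subunit that sits beside *Med23* and *Med16* and lies at chr11:98704591-98729435 (minus strand). In batch 2 its normalised counts were 235, 276 and 233 in controls and 445, 464 and 442 in mutants, so the groups were apart. In batch 1 controls had 745, 967 and 486 and mutants had 1050 and 899, with overlap. The log2 fold change was 0.66 ± 0.20 with a DESeq2 adjusted p of 0.0520 and an edgeR adjusted p of 0.228, and was 0.42 in batch 1 and 0.86 in batch 2. Without control replicate 5, the batch 1 control with the highest count, DESeq2 called it (0.78, adjusted p = 0.00273). DESeq2 also called it with TMM size factors (0.67, adjusted p = 0.0452) and with a stricter filter on low counts (0.66, adjusted p = 0.0490).

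*Med13* encodes the large subunit that links the kinase module to the core, at chr11:86267033-86357602 (minus strand). Controls had normalised counts of 235, 136 and 152 in batch 1 and 666, 363 and 355 in batch 2. Mutants had 139 and 99.4 in batch 1 and 378, 320 and 186 in batch 2. The groups overlapped in both batches, and the difference between batches was larger than that between groups. The log2 fold change was -0.60 ± 0.26 (DESeq2 adjusted p = 0.307, edgeR adjusted p = 0.459).

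**Figure D3:**
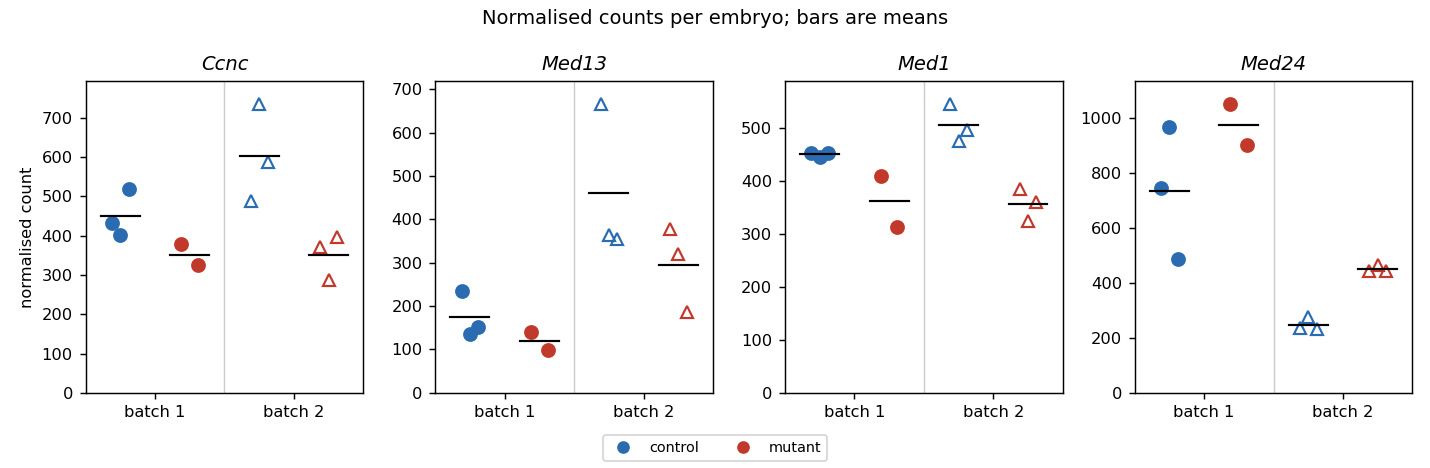
Normalised counts of *Ccnc*, *Med13*, *Med1* and *Med24* in each embryo, by batch and group, with the mean of each set as a bar. For *Ccnc* and *Med1* all 5 mutants lie below all 6 controls, while for *Med13* and *Med24* the batches differ more than the groups do.

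The remaining kinase module genes gave no call. *Cdk8* had normalised counts of 279.6 to 529 in mutants (median 389) and 290 to 559 in controls (median 389), with a log2 fold change of -0.06 ± 0.24 (DESeq2 adjusted p = 0.965), and its direction differed between the batches (-0.53 in batch 1 and 0.30 in batch 2). Its paralog *Cdk19* had -0.19 ± 0.36. *Med12l* had 0.47 ± 0.25 (DESeq2 unadjusted p = 0.0563), with 59.9, 53.8 and 71.9 normalised counts in batch 1 controls against 119 and 89.0 in batch 1 mutants, and with overlapping groups in batch 2. *Med12* had 0.34 ± 0.46 and *Med13l* had -0.34 ± 0.25.

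In the other modules, the members with the highest and lowest mean levels over the 11 embryos gave small or imprecise values. In the head, *Med28* had a log2 fold change of -0.05 ± 0.15 and *Med30* of -0.59 ± 0.44, the latter with 15 to 59 expected counts per embryo. In the middle, *Med10* had 0.03 ± 0.20 and *Med26* -0.08 ± 0.29. In the tail, *Med27* had -0.14 ± 0.12 and *Med16* 0.26 ± 0.39, and the scaffold gene *Med14* had -0.14 ± 0.26. *Med21*, a small middle subunit that pairs with *Med7*, had -0.41 ± 0.23 (DESeq2 adjusted p = 0.513). Without mutant replicate 5, whose normalised count of 697 was the highest of the mutants, it was called (-0.71, adjusted p = 0.0375), and its change was -0.03 in batch 1 and -0.72 in batch 2.

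By module, the median log2 fold change was -0.05 in the head, -0.08 in the middle, 0.22 in the tail and -0.19 in the kinase module. In the tail 6 of 7 genes were above 0, in the head 7 of 9 were below 0, and in the kinase module 5 of 7 were below 0. These medians are descriptions and no test was run on them. That of the kinase module was -0.36 in batch 1 alone and 0.02 in batch 2 alone, -0.03 without the batch term and -0.04 without mutant replicate 1. That of the tail was 0.08 with limma and 0.09 without mutant replicate 3.

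Summed TPM of the kinase module was 113 to 142 in batch 1 controls and 93.8 to 106 in batch 1 mutants, and 140 to 151 in batch 2 controls and 104 to 118 in batch 2 mutants. The groups were thus apart within both batches. *Ccnc* alone gave a mean of 68.6 ± 13.1 TPM in controls (n = 6) and 44.6 ± 10.3 TPM in mutants (n = 5). Without *Ccnc* the sum was 66.3 ± 14.5 TPM in controls and 61.9 ± 13.0 TPM in mutants, and the batches differed. In batch 1 the mutants (49.1 and 49.2) were still below the controls (52.0 to 80.8), and in batch 2 the mutants (61.1 to 75.1) lay inside the range of the controls (49.6 to 82.5).

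Summed TPM of the head was 1053 ± 86.3 in controls and 1004 ± 81.2 in mutants. In batch 1 its groups were apart (1039 to 1159 in controls, 906 and 959 in mutants), and in batch 2 they overlapped (908 to 1116 and 1003 to 1123). The tail had 459 ± 71.1 and 448 ± 89.9, with overlap in both batches. Most of this came from *Med27* (means of 237 in controls and 210 in mutants) and *Med29* (130 and 132). Their placement differs between schemes, so the tail sum depends on it. For the middle it was 860 ± 92.3 and 779 ± 59.2, with the groups apart in batch 2 (885 to 960 and 711 to 873) and overlapping in batch 1. Over all 33 genes the sum was 2360 to 2642 TPM in controls and 2278 to 2512 TPM in mutants. In batch 1 this sum was also apart, at 2523 to 2630 and at 2393 and 2401, and in batch 2 it overlapped.

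**Figure D4:**
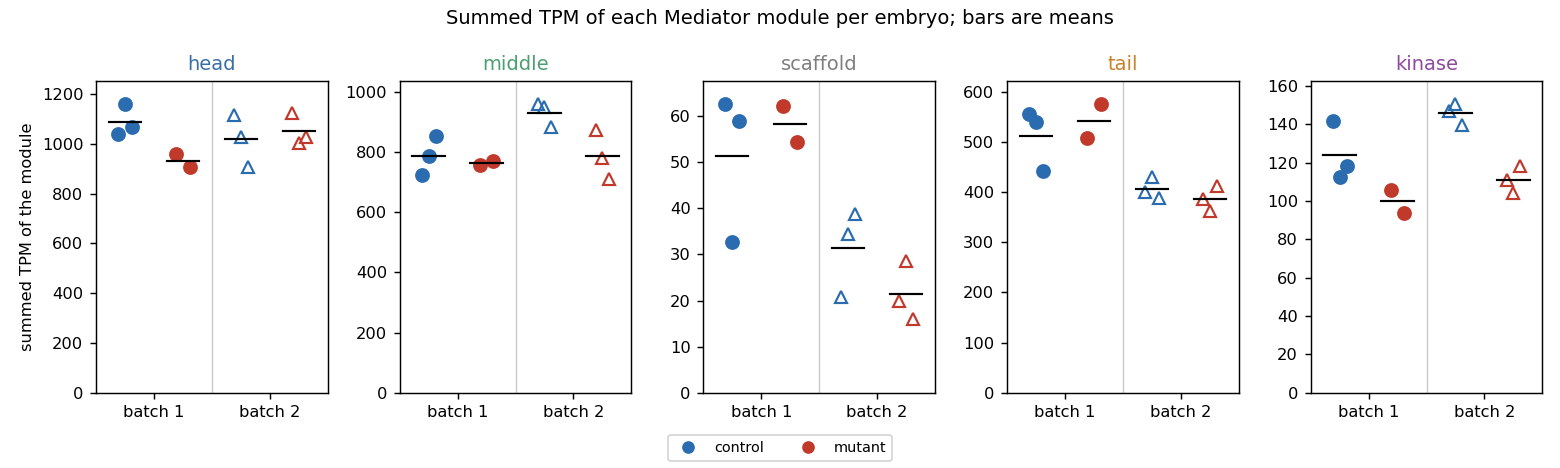
Summed TPM of the genes of each Mediator module in each embryo, by batch and group, with the mean of each set as a bar and each vertical axis starting at 0. The kinase module is the one whose groups are apart in both batches, and the tail differs more between batches than between groups.

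More Mediator genes were called between the batches than between the genotypes. With group as a term, DESeq2 called 13 of the 33 members (39.4%) different between the batches, against 27.9% of all tested genes. Of the same 13, edgeR called 10. The share of all tested genes that edgeR called between batches is not given here, so its count was not set against a background. Batch stands for separate isolation and processing of embryos and for the number of PCR cycles, which cannot be told apart.

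Higher in batch 2 were 8 members (24.2%, against 13.8% of all tested genes). Of these 4 were kinase module genes, with log2 differences of 1.42 for *Med12l*, 1.36 for *Med13*, 0.95 for *Cdk19* and 0.77 for *Med13l*. The others were *Med19*, *Med10*, *Med31* and *Med28*, at 0.42 to 0.71. Lower in batch 2 were 5 members (15.2%, against 14.0%), namely the tail genes *Med16* (-1.81), *Med24* (-1.36) and *Med25* (-1.11) and the head genes *Med22* (-0.57) and *Med17* (-0.51). *Med17*, *Med22* and *Cdk19* were the 3 that edgeR did not call.

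The batch difference went with base composition. The transcripts of the 5 genes lower in batch 2 had a median GC content of 56.4%, those of the 8 genes higher in batch 2 of 49.1% and those of the 20 others of 49.8%. Across the 33 members the log2 batch difference and GC content had a Pearson r of -0.54 (Spearman rho -0.43), and across 10445 tested genes -0.35 (-0.39). These points share the same 11 libraries, and the values are descriptions. When the trend with GC content was removed from each library, a correction chosen after the data were seen, 12 members were called between batches, 10 of them among the 13. The share of all tested genes called after the correction is not given here, so these 12 were not set against a background. *Med19*, *Med22* and *Cdk19* were no longer called, *Med11* and *Med29* were added, and *Med24*, *Med12l* and *Med13* had values of -1.13, 1.27 and 0.93. The values of the 2 members with the highest GC content among those called moved more, from -1.81 to -1.18 for *Med16* and from -1.11 to -0.52 for *Med25*.

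The mutant against control values also went with GC content among the members, with a Pearson r of 0.60 (Spearman rho 0.59) over the 33 genes, against 0.10 (0.16) over 10445 tested genes. *Ccnc* had the lowest GC content of the members, 37.4%, *Med21* had 39.6% and *Med13* had 40.5%, while *Med24* had 53.7% and the tail as a module a median of 55.6%. After the correction the members' r was 0.42 and that of all tested genes -0.01. *Ccnc* then had a log2 fold change of -0.46 (DESeq2 adjusted p = 0.119), *Med1* -0.37 (adjusted p = 0.184) and *Med24* 0.60 (adjusted p = 0.0707), and the tail median was 0.14. The part of base composition in these values was not tested further.

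**Figure D5:**
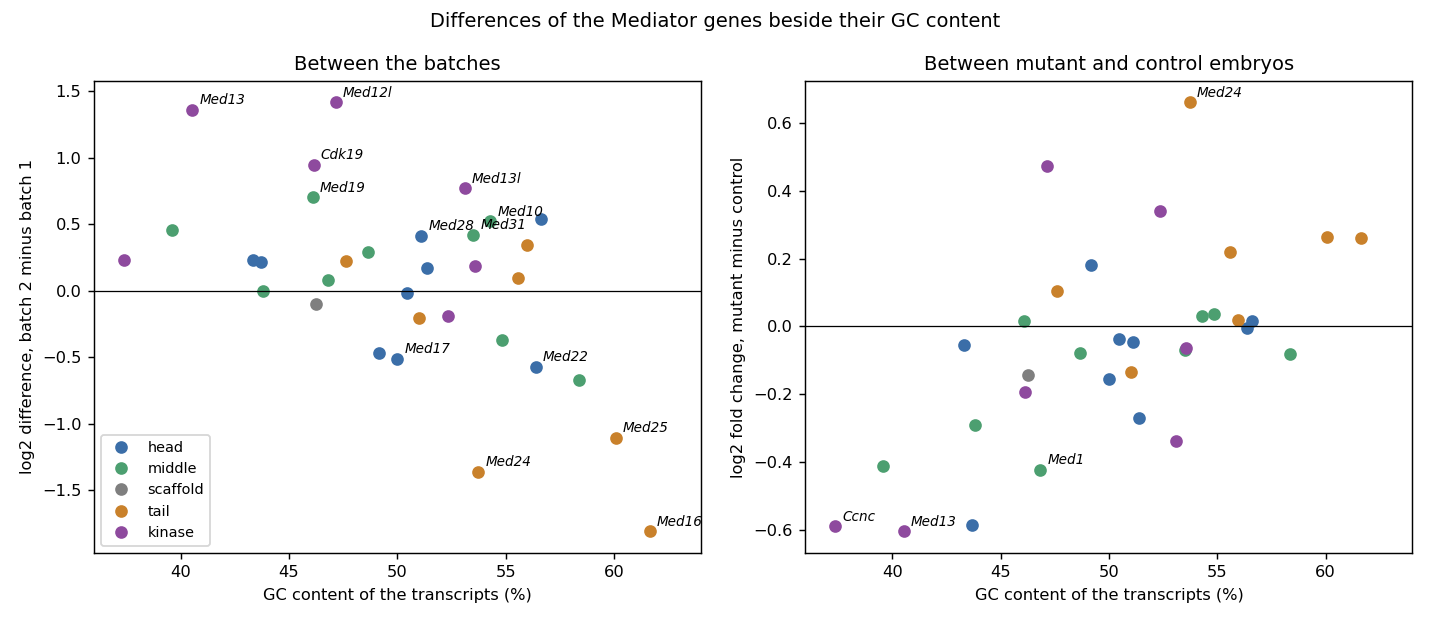
Log2 differences of the 33 Mediator genes between batch 2 and batch 1 (left) and between mutant and control embryos (right), each plotted against the mean GC content of the gene's transcripts in percent and coloured by module. Names mark the 13 genes called between batches and the 4 with an unadjusted p under 0.05 between groups, with Pearson r of -0.54 on the left and 0.60 on the right.

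A batch by group interaction, which asks whether the mutant against control change differed between the batches, was called for no member by DESeq2 (0.0382% of all tested genes were called) or by edgeR (0.00%). No member reached an unadjusted p under 0.05 in that test, against 4.30% of all tested genes with DESeq2 and 3.23% with edgeR.

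PRDM10 binds DNA through zinc fingers, so the letters of its gel-shift probe were set beside the Mediator promoters. The study's designed probe and its altered form are shown because the bases changed between them, in capitals, mark what was tested for binding.
unchanged probe: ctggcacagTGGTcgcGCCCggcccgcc
altered probe: ctggcacagCAACcgcATTTggcccgcc

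The 11 bases from the first to the last altered position, TGGTCGCGCCC, were searched on both strands of the RefSeq promoters (GRCm38.p6, 250 bases before to 50 after each start). Of the members, 28 had an entry, with 32 promoters. None held these letters exactly or with 1 mismatch, where 0.0122% and 0.788% of all 32851 promoters did. With at most 2 mismatches, 3 Mediator promoters matched (9.38%), against 10.4% of all promoters, which is near the background. The matching letters are given with mismatched bases in lower case, on the strand that matches the probe.
*Med27* (chr2:29378376-29378386, plus strand): TGGTaGgGCCC
*Med21* (chr6:146642470-146642480, plus strand): TGGcCcCGCCC
*Med29* (chr7:28392652-28392662, minus strand): TGGctGCGCCC

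A match describes letters and not binding. The *Med27* match lay in a promoter inside the gene (chr2:29378264-29378563). The promoter at the start of *Med27* (chr2:29346560-29346859) had 4 mismatches at best. With at most 3 mismatches, 18 of the 32 Mediator promoters matched (56.2%), against 47.2% of all promoters. The single *Ccnc* and *Med1* promoters were among those without such a match, and *Med24* had no entry. None of the 33 genes is on the study's list of genes with PRDM10 bound nearby in embryonic stem cells.

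Other parts of the general transcription machinery were examined in the same fit. Of 13 RNA polymerase II subunit genes, 31 general transcription factor genes and 15 pause and elongation factor genes, DESeq2 called 0, 2 (6.45%, against 1.45% of all tested genes) and 0, and edgeR called none. At an unadjusted p under 0.05 DESeq2 gave 0, 6 (19.4%) and 3 (20%) genes, against 11.9% of all tested genes. Both called genes encode TFIID subunits, part of the factor that recognises core promoters. *Taf3* had a mean of 6.79 TPM in controls and 3.87 TPM in mutants (log2 fold change -0.89 ± 0.25, DESeq2 adjusted p = 0.0347, edgeR adjusted p = 0.241), and its normalised counts were apart in both batches. *Taf6* had 45.9 and 81.4 TPM (0.94 ± 0.26, DESeq2 adjusted p = 0.0313, edgeR adjusted p = 0.188), with overlap. Of the polymerase genes, the smallest p was that of *Polr2d* (-0.22 ± 0.18, DESeq2 adjusted p = 0.698), and of the elongation genes that of *Nelfcd*, a subunit of the pausing factor NELF (0.51 ± 0.16, DESeq2 adjusted p = 0.0647). The median log2 fold changes of the 3 lists were -0.01, -0.13 and 0.01, beside -0.06 for Mediator.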

How the data were processed

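RNA-seq was done on 11 single embryos. According to the study's methods and the submitters' processing notes, the authors mapped reads to GRCm38.p6 with STAR (2.6.0c), estimated gene counts with RSEM and a GENCODE annotation, and tested genes with DESeq2 (1.22.2). The deposited table of each embryo gives RSEM expected counts, TPM, effective lengths and the posterior standard deviation of each count. A deposited table of the authors' own comparison (means, log2 fold changes, scores and p-values) was not used. Symbols, coordinates and GC content came from a later GENCODE annotation of GRCm38, which named 54079 of 54146 genes.

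Expected counts were rounded and tested with the DESeq2 (1.42.0) Wald test in R (4.3.3), with batch and group as terms, on all genes. Genes with a baseMean above 10 and an adjusted p (Benjamini-Hochberg) under 0.05 were called. Normalised counts are counts divided by DESeq2 size factors. The 95% intervals are Wald intervals. edgeR (4.0.16) and limma (3.58.1, TPM with a pseudocount of 1) were run beside it. The DESeq2, edgeR and limma fits were tested on simulated counts. Groups and batches came from the labels. Replicates were numbered in accession order, and p-values measure the spread between embryos. No molecular identifiers were used, so read counts are not molecule counts. Summed expected counts of 3534735 to 8265840 limit the precision of genes with few reads.

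The Mediator genes, the module and gene lists, and the tests were chosen with earlier results of these data known. Genes given in full were those with a DESeq2 unadjusted p under 0.05, those whose groups did not overlap within both batches, the kinase module, and the highest and lowest member of each module. *Med21* and the genes of the other lists with a call or the smallest p were also named, *Med21* after its values were seen. Alternatives were another tool, size factors, filters, batch terms, single batches, a length offset, module membership, leaving out each embryo and, added later, a GC correction.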

Additional observations from a re-analysis of the deposited data

Results flagged for a closer look

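In each group of 5 or 6 embryos the highest and lowest normalised count of each Mediator gene were compared with the others by Dixon's gap over range. Of 66 sets of values tested 2 stood out, and chance flags about 1 in 20. The sets pooled the batches. Both flags came from 1 of the 2 batch 1 mutants, mutant replicate 5. Its *Med23* normalised count was 165.6, where the other 4 mutants had 259 to 285. Its *Med27* normalised count was 1455, where the others had 1038 to 1124. The batch 1 controls had 148 to 276 for *Med23* and 1316 to 1419 for *Med27*. With and without mutant replicate 5, neither gene was called between mutants and controls by DESeq2.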

How the results depend on the processing

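The number of Mediator genes called was 0 and stayed 0 in 18 of 22 alternatives. It was 1 with TMM size factors (*Med24*, log2 fold change 0.67) and with a filter of 10 counts in 5 libraries (*Med24*, 0.66), and 0 to 1 when each embryo was left out (*Med24* at 0.78 without control replicate 5, and *Med21* without mutant replicate 5). Calls over all tested genes, 151, were 35 with edgeR, 22 with limma, 51 without a batch term, 72 in batch 1 alone and 45 in batch 2 alone, and 90 to 265 with an embryo left out (265 without control replicate 2, 90 without mutant replicate 2 and 91 without mutant replicate 5). The 2 transcription machinery calls became 0 with edgeR, limma, no batch term or either batch alone, 1 with the GC correction, and 0 to 2 with an embryo left out (0 without control replicates 1 or 3 or mutant replicates 4 or 5, 2 without control replicate 2, otherwise 1). The 13 Mediator genes differing between batches became 8 to 12 with an embryo left out, the 8 without control replicate 4. *Cdk8* changed direction with limma (0.04), in batch 2 alone (0.30), with the length offset (0.03) and with an embryo left out (-0.20 to 0.07), and *Cdk19* in batch 2 alone (0.02). The mutant minus control difference in summed TPM was -49.1 for the head, but -156 in batch 1 alone and 34.1 in batch 2 alone. It was -81.1 for the middle and -143 in batch 2 alone, and -5.15 for *Med14* but 6.91 in batch 1 alone. The cause of these differences was not tested, beyond the smaller number of embryos in a single batch. The module medians of the log2 fold change moved by less than the spread between embryos in all 22 alternatives, but 2 changed direction. The kinase median, -0.19, was 0.02 in batch 2 alone. The value of *Med14*, -0.14, was 0.28 in batch 1 alone and 0.01 without control replicate 3 or mutant replicate 3.

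No paired analysis was possible because the labels give the embryos no replicate numbers that link the groups. With 5 or 6 embryos a group, changes well under 2-fold could not be told from no change for the genes with few reads, such as *Med12* and *Med30*.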
